A study of Mus musculus with 8 samples.

Results

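The genes described here are the zinc transporters of both mammalian families, the metallothioneins and the zinc-sensing transcription factor Mtf1. They were chosen by name from the deposited expression table: every entry called Slc30a or Slc39a followed by a number, and Mt1, Mt2, Mt3 and Mtf1. This gave 28 genes of 46955 uniquely named entries, namely 10 Slc30a genes, 14 Slc39a genes, 3 metallothioneins and Mtf1.

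RNA was sequenced from 3 populations of islet cells of adult mice that carried an Ins1-H2b-mCherry reporter, which marks nuclei of cells with an active insulin promoter, a Gcg-cre transgene and a floxed YFP allele, which together mark cells of alpha descent. Transdifferentiated cells were beta cells bearing the alpha lineage label (2 libraries, 1 male and 1 female pool). Alpha cells (3 libraries, 2 male and 1 female) and beta cells (3 libraries, 1 male and 2 female) were sorted for comparison. Each library came from islets of 10 to 12 animals pooled by sex, cultured overnight at 5.5 mM glucose, dissociated and sorted, so that all groups shared the culture and the sort. The labels' design text also speaks of pools of bitransgenic females without saying which libraries these were. It is therefore not certain that all groups shared all the transgenes. The lineage label reports only that the glucagon promoter drove Cre at some time. The titles of alpha replicates 1 and 2 share a number, as do those of beta replicates 1 and 2, and the labels do not say whether these are separate pools, so the p-values may measure spread between preparations rather than between pools.

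Proteins of the Slc30a family (ZnT) move zinc out of the cytosol, into organelles or out of the cell, and proteins of the Slc39a family (ZIP) move it into the cytosol. Metallothioneins are small cysteine-rich proteins that bind zinc and copper, and Mtf1 is the factor that, when zinc binds it, switches on Mt1, Mt2 and the exporter gene Slc30a1 through metal response elements. In beta cells ZnT8, the product of Slc30a8, loads zinc into the granules in which insulin is stored as zinc-bound crystals, and alpha cells make ZnT8 as well.

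Mt1 and Mt2 lie side by side on chromosome 8 and had the highest levels of the 28 genes in the transdifferentiated and beta libraries, so the 250 bases before their RefSeq starts are shown (build GRCm38.p6, both genes on the plus strand). Capitals mark the core of the metal response element, TGCACNC or TGCGCNC on either strand.
Mt1 (chr8:94178839-94179088): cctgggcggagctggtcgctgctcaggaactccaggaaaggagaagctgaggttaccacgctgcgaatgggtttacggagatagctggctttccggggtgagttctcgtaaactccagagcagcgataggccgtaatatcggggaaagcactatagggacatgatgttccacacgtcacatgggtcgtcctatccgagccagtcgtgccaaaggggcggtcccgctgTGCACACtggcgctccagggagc
Mt2 (chr8:94172368-94172617): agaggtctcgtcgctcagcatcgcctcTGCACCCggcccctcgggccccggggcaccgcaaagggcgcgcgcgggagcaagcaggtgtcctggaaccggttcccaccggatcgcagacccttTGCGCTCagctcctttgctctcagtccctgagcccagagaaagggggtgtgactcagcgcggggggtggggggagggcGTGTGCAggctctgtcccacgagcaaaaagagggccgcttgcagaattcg

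The Mt1 window held 1 such core, beginning 23 bases before the start, and 2 further cores began 3 and 21 bases after the start. The Mt2 window held 3 cores, the last of them on the minus strand, and 1 further core began 5 bases after the start. Of 32851 RefSeq promoter windows of the same length, 21.4% held at least 1 core, 5.17% at least 2 and 1.26% at least 3. With the 50 bases after the start included, these shares were 25.7%, 7.11% and 1.97%. RefSeq had windows for 24 of the 28 genes, 29 in all because some genes have more than 1 start, and 13 of these 29 windows (44.8%) held at least 1 core, belonging to 12 genes. Slc30a1 had 1 core, Slc30a4 had 2, and Mt3 and Mtf1 had none in their windows. In or reaching into the 50 bases after the start, Slc30a1, Slc30a4, Slc39a13 and Mt3 had 1 core each and Mtf1 had none. A match of letters is a description of the sequence and does not show that a factor binds there.

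Sequencing depth differed between the groups. Recovered reads, the whole numbers of reads behind the RPKM values, came to 1238420 and 2157677 in the transdifferentiated libraries, 12852223 to 14030290 in the alpha libraries and 14276585 to 21309394 in the beta libraries. A single read of a gene of 1 kb stood for 0.804 and 0.461 RPKM in transdifferentiated replicates 1 and 2, and for 0.0467 to 0.0774 RPKM in alpha and beta libraries. The hormone genes followed the labels: Gcg averaged 19239 ± 191 RPKM in transdifferentiated cells (SD, n = 2), 179550 ± 14700 in alpha cells and 959 ± 709 in beta cells (SD, n = 3 each), and Ins2 averaged 90662 ± 5003, 985 ± 145 and 138330 ± 20930 RPKM in the same order. Libraries were not strand-specific, so reads could not be assigned between genes that overlap on opposite strands. In sorted bulk samples, fewer cells of a type and less RNA per cell cannot be told apart.

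The 28 genes ranged from 0 in all libraries (Slc30a3) to 3412 RPKM (Mt1 in beta replicate 3). Mt1, Mt2 and Slc30a8 were the 3 highest, 11 genes reached a mean of 10 RPKM in at least 1 group, and 8 genes stayed under 1 RPKM in every library. The other 20 passed the filter (at least 1 RPKM in at least 2 of the 8 libraries) and were tested with limma on log2(RPKM + 0.5), in 1 fit of all 13172 genes that passed, with sex as a term. A gene is said to be higher or lower below where the Benjamini-Hochberg adjusted p over all these genes was under 0.05.

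**Figure D1:**
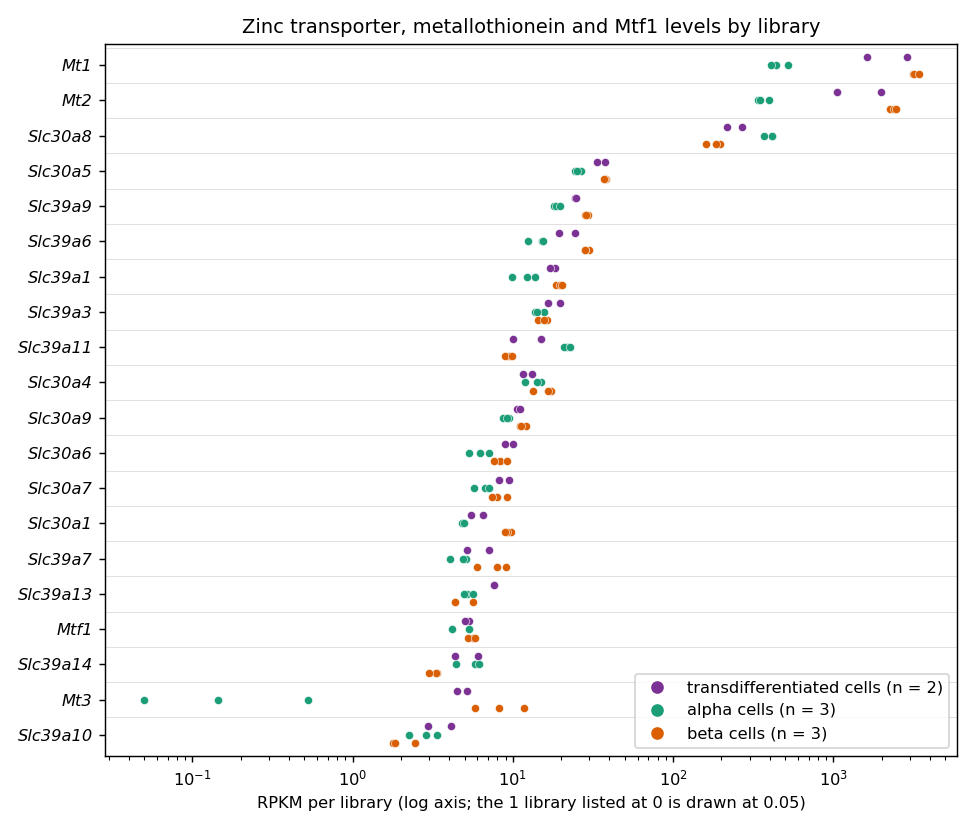
Level of each of the 20 tested genes in each library, in RPKM on a log axis, for transdifferentiated cells (purple, n = 2), alpha cells (green, n = 3) and beta cells (orange, n = 3). Mt1 and Mt2 lie above 1000 RPKM in every transdifferentiated and beta library and between 338 and 522 RPKM in the alpha libraries, while the order is turned round for Slc30a8 and Slc39a11; the 1 alpha library listed at 0 for Mt3 is drawn at 0.05.

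Against beta cells, transdifferentiated cells differed in 2 of the 20 tested genes. Only Slc39a13 was higher and only Slc30a1 was lower, with 9.10% of all tested genes higher and 2.90% lower in this comparison. The median log2 fold change was -0.09 over the 20 genes and 0.09 over all genes tested. With median-ratio scaling or quantile normalization, none was higher and 3 were lower. Against alpha cells, transdifferentiated cells had 10 of the 20 genes higher and 2 lower (Slc30a8 and Slc39a11), against 23.2% of all tested genes higher and 6.67% lower. Here the medians were 0.36 for the 20 genes and 0.17 for all genes. With either of these scalings 4 of the 20 were higher and 3 lower, and without transdifferentiated replicate 1 or 2 there were 5 or 6 higher and 2 lower. In alpha cells against beta cells, 3 genes were higher (Slc30a8, Slc39a11 and Slc39a14) and 11 were lower, against 16.9% of all tested genes higher and 26.7% lower. Mt3 counts among the 10 higher and the 11 lower genes, although it passed the filter with no alpha library at 1 RPKM and so had to differ from alpha cells. The medians were -0.32 for the 20 genes and -0.05 for all genes. Every pair of these comparisons shares a group of libraries, so they are not independent of each other.

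**Figure D2:**
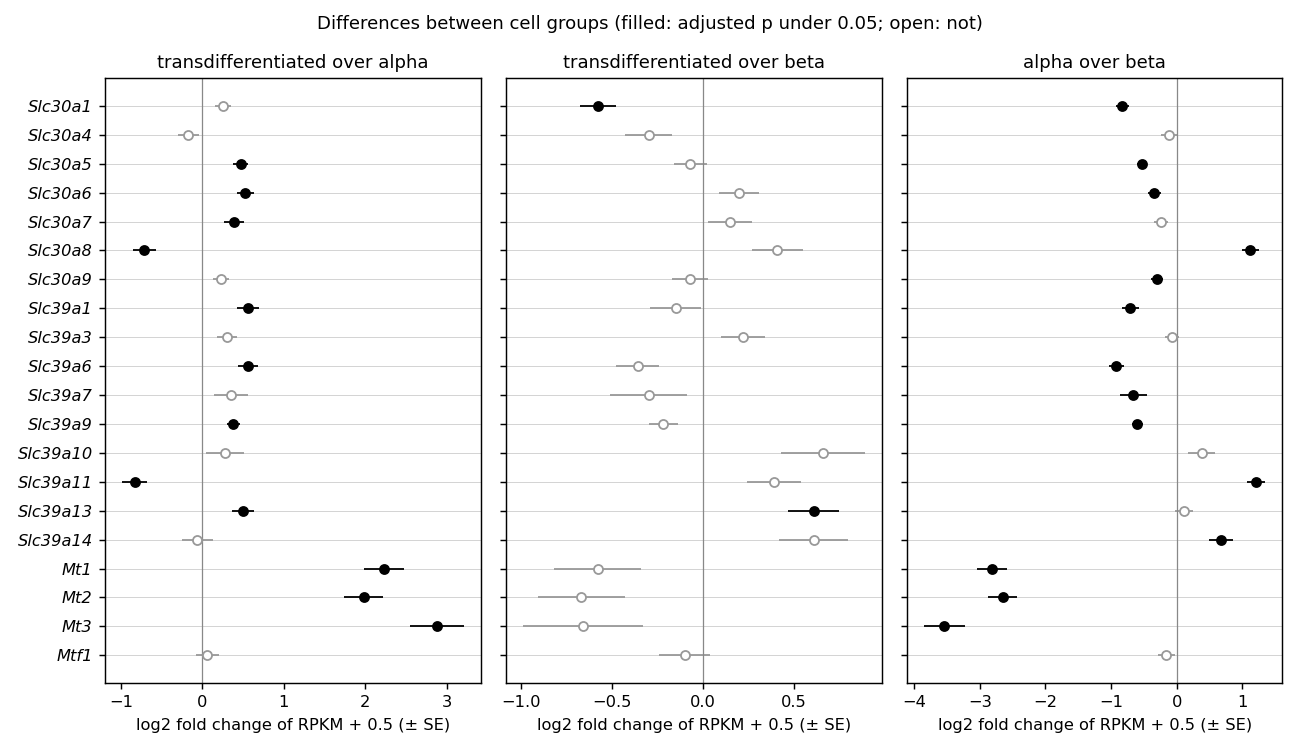
Log2 fold change of RPKM + 0.5 (points) with its standard error (lines) for the 20 tested genes, in transdifferentiated over alpha cells, transdifferentiated over beta cells and alpha over beta cells; filled points have a limma adjusted p under 0.05. The 3 metallothioneins stand far to the right in the left panel and far to the left in the right panel, and the scales of the 3 panels differ. Mt3 passed the filter with no alpha library at 1 RPKM, so its difference from alpha cells was fixed. Its filled points in these 2 panels are a description and no test.

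The metallothioneins made the widest contrast. Mt1 (ENSMUSG00000031765, chr8:94179082-94180327) had 1620 and 2880 RPKM in the transdifferentiated libraries, 441, 522 and 407 RPKM in the alpha libraries and 3163, 3206 and 3412 RPKM in the beta libraries. The groups did not overlap, and both transdifferentiated libraries lay between the alpha and the beta libraries, the male pool well below the female one. Mt2 (chr8:94172664-94173568), its neighbour, had 1061 and 1992 RPKM in transdifferentiated cells, 338, 395 and 351 RPKM in alpha cells and 2272, 2384 and 2467 RPKM in beta cells, in the same order of groups. Its exons share 73.5% of their bases with Gm45774 on the opposite strand, so its reads could include some of that gene. Mt1 and Mt2 ranked 6th to 9th among all genes in each beta library. In the transdifferentiated libraries Mt1 ranked 16 and 12 and Mt2 ranked 20 and 17, and in the alpha libraries Mt1 ranked 35 to 39 and Mt2 ranked 44 to 52.

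Transdifferentiated cells had 4.93 times the mean Mt1 level of alpha cells (log2 fold change 2.23 ± 0.24 SE, limma adjusted p = 0.000887), and for Mt2 the log2 fold change was 1.98 ± 0.24 (limma adjusted p = 0.00125). Set against beta cells, the transdifferentiated means stood at 69.0% for Mt1 and 64.3% for Mt2. The log2 fold changes of -0.58 ± 0.24 for Mt1 (limma adjusted p = 0.159) and -0.67 ± 0.24 for Mt2 (limma adjusted p = 0.102) did not pass the test. Both values rested on which transdifferentiated library was kept. Without replicate 1, the male pool, they were -0.12 for Mt1 (limma adjusted p = 0.677) and -0.23 for Mt2 (limma adjusted p = 0.387). Without replicate 2, the female pool, they were -1.12 (limma adjusted p = 0.0248) and -1.21 (limma adjusted p = 0.0198). Alpha cells had lower levels than beta cells, by -2.81 ± 0.23 on the log2 scale for Mt1 (limma adjusted p = 0.000115) and -2.65 ± 0.22 for Mt2 (limma adjusted p = 0.000127). The ratio of Mt1 to Mt2 RPKM was 1.49 ± 0.0580 in transdifferentiated cells (SD, n = 2), 1.26 ± 0.0883 in alpha cells and 1.37 ± 0.0253 in beta cells (SD, n = 3 each). The ratio lay between 1.16 and 1.53 in all 8 libraries, while the sum of both genes ran between 758 and 5878 RPKM.

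Mt3 (chr8:94152607-94154146), the metallothionein best known from brain, was far weaker. It had 4.48 and 5.14 RPKM in transdifferentiated cells (3 and 6 reads), 0.144, 0 and 0.527 RPKM in alpha cells (1, 0 and 4 reads) and 11.7, 5.82 and 8.17 RPKM in beta cells (117, 67 and 63 reads). Since the filter fixed its difference from alpha cells, no test of that difference is given. As a description, its log2 fold change was 2.88 ± 0.33 in transdifferentiated over alpha cells and -3.54 ± 0.31 in alpha over beta cells. In alpha over beta cells the size ran between -5.05 and -2.86 over the alternative settings. Against beta cells the transdifferentiated value of -0.66 ± 0.33 did not pass (limma adjusted p = 0.219).

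**Figure D3:**
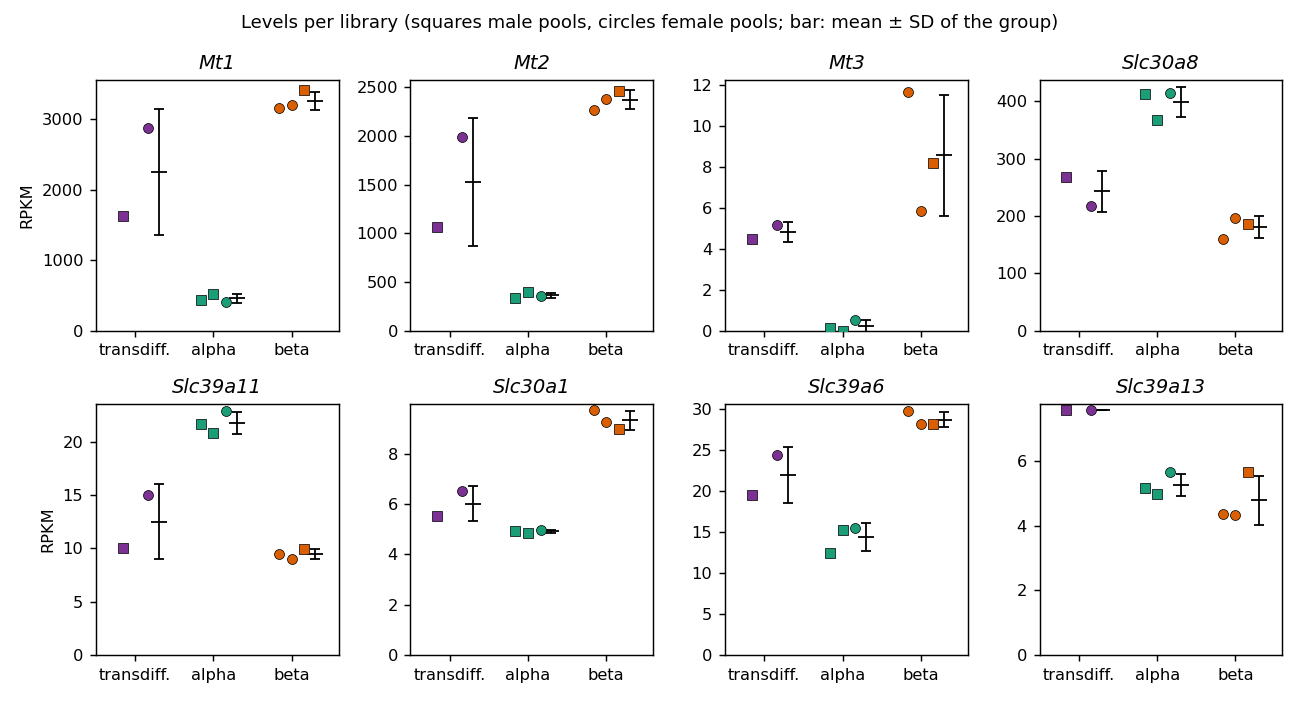
RPKM of 8 of the genes in each library, with transdifferentiated, alpha and beta cells from left to right, squares for male pools, circles for female pools, and the mean ± SD of each group as a bar. Mt1, Mt2 and Mt3 are lowest in alpha cells, Slc30a8 and Slc39a11 are highest in alpha cells, and the 2 transdifferentiated libraries differ most from each other for Mt1 (1620 and 2880 RPKM) and Mt2 (1061 and 1992 RPKM).

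Mtf1 itself, the factor that acts on Mt1 and Mt2, hardly moved. It had 5.32 and 5.02 RPKM in transdifferentiated cells, 4.19, 5.33 and 5.34 RPKM in alpha cells and 5.65, 5.23 and 5.83 RPKM in beta cells. The 3 groups overlapped, and no comparison passed (limma adjusted p between 0.347 and 0.774). Its exons share 8.1% of their bases with the antisense gene 1110065P20Rik, which averaged 5.60 RPKM over the alpha and beta libraries. Of 4 other genes reported as Mtf1 targets in mouse liver, all 4 were higher in transdifferentiated than in alpha cells, and alpha cells had all 4 at a lower level than beta cells (23.2% and 26.7% of all tested genes in these directions). Gclc, the catalytic subunit of the enzyme that starts glutathione synthesis, had 27.7 and 26.7 RPKM in transdifferentiated cells, 15.3, 14.2 and 15.3 RPKM in alpha cells and 21.2, 21.3 and 19.0 RPKM in beta cells. It was the 1 of the 4 that was higher in transdifferentiated than in beta cells, with a log2 fold change of 0.41 ± 0.09 (limma adjusted p = 0.0316). For Sepw1, a selenoprotein, and Csrp1, a LIM domain protein, the log2 fold changes in alpha over beta cells were -0.81 ± 0.10 and -0.79 ± 0.16 (limma adjusted p = 0.000689 and 0.00697). Ndrg1, a stress-responsive gene, stood at -0.46 ± 0.10 in the same comparison (limma adjusted p = 0.0102). The medians of the 4 were 0.58 in transdifferentiated over alpha cells, -0.11 in transdifferentiated over beta cells and -0.63 in alpha over beta cells, beside 0.17, 0.09 and -0.05 for all genes tested.

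Slc30a8 (ENSMUSG00000022315, chr15:52295553-52335798, plus strand) ran the other way from the metallothioneins. It had 268 and 218 RPKM in the transdifferentiated libraries (657 and 931 reads), 413, 368 and 415 RPKM in the alpha libraries and 160, 196 and 186 RPKM in the beta libraries. The groups did not overlap: every alpha library exceeded every transdifferentiated library, and both transdifferentiated libraries exceeded all beta libraries. Alpha cells had 2.21 times the mean level of beta cells (log2 fold change 1.12 ± 0.13, limma adjusted p = 0.000509). Transdifferentiated cells stood at 61.0% of the alpha mean (-0.71 ± 0.14, limma adjusted p = 0.00859). Against beta cells they stood at 134% of the mean, which missed the threshold (0.41 ± 0.14, limma adjusted p = 0.0894). Slc30a8 ranked 68 and 89 among all genes in transdifferentiated libraries, 35 to 54 in alpha libraries and 111 to 143 in beta libraries. Libraries whose titles lack a letter b had 413 RPKM (alpha replicate 1) and 160 RPKM (beta replicate 1). Those that carry it had 368 and 415 RPKM in alpha cells and 196 and 186 RPKM in beta cells. Since the groups did not overlap, alpha had to stand above beta in both sets, so this split adds no support.

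Wherever another Slc30a gene differed from alpha cells, the alpha level was the lower one. Slc30a1 (chr1:191906767-191913247), the exporter of the plasma membrane, had 5.52 and 6.51 RPKM in transdifferentiated cells (36 and 74 reads), 4.90, 4.84 and 4.96 RPKM in alpha cells and 9.72, 9.24 and 8.99 RPKM in beta cells. The beta libraries stood apart from all others, and the transdifferentiated libraries were nearer to the alpha than to the beta level. It was lower in transdifferentiated than in beta cells (-0.58 ± 0.10, limma adjusted p = 0.019) and lower in alpha than in beta cells (-0.83 ± 0.10, limma adjusted p = 0.000575). Between transdifferentiated and alpha cells it did not pass (0.25 ± 0.10, limma adjusted p = 0.113). The difference between transdifferentiated and beta cells kept its direction but lost its call without transdifferentiated replicate 1 (-0.50, limma adjusted p = 0.0601) and without beta replicate 1, 2 or 3 (-0.57, -0.60 and -0.57, limma adjusted p = 0.0654, 0.0516 and 0.0944).

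Slc30a5, Slc30a6 and Slc30a7 supply zinc to the early secretory pathway, the first 2 as a complex with each other. Slc30a5 had 33.6 and 37.4 RPKM in transdifferentiated cells, 26.7, 24.3 and 25.3 RPKM in alpha cells and 37.9, 37.4 and 36.9 RPKM in beta cells, so that transdifferentiated and beta cells stood together above alpha cells. Its log2 fold change was 0.47 ± 0.09 in transdifferentiated over alpha cells (limma adjusted p = 0.00733) and -0.53 ± 0.08 in alpha over beta cells (limma adjusted p = 0.0019), the second of which was -0.21 with quantile normalization (limma adjusted p = 0.088). Slc30a6 had 8.88 and 9.99 RPKM in transdifferentiated cells, 5.35, 6.21 and 7.12 RPKM in alpha cells and 8.34, 9.17 and 7.68 RPKM in beta cells. It was higher in transdifferentiated than in alpha cells (0.53 ± 0.11, limma adjusted p = 0.0116), a call lost without transdifferentiated replicate 1 (0.50, limma adjusted p = 0.0609). It was lower in alpha than in beta cells (-0.34 ± 0.10, limma adjusted p = 0.0336), a call lost in 6 of the 8 fits without 1 library, with an adjusted p of up to 0.164. Slc30a7 had 8.24 and 9.50 RPKM in transdifferentiated cells, 5.68, 6.71 and 7.12 RPKM in alpha cells and 7.92, 9.23 and 7.36 RPKM in beta cells. Its log2 fold change of 0.39 ± 0.12 in transdifferentiated over alpha cells (limma adjusted p = 0.0444) lost its call in each of the 8 fits without 1 library, with an adjusted p of up to 0.14.

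Slc30a9, reported in human cells to carry zinc out of mitochondria, had 10.6 and 11.0 RPKM in transdifferentiated cells, 8.66, 9.44 and 9.24 RPKM in alpha cells and 12.1, 11.1 and 11.3 RPKM in beta cells. It was lower in alpha than in beta cells (-0.30 ± 0.09, limma adjusted p = 0.0288), a call lost in 5 of the 8 fits without 1 library, with an adjusted p of up to 0.144. Slc30a4, known in mouse from the zinc-poor milk of the lethal milk mutant, had 11.6 and 13.2 RPKM in transdifferentiated cells, 12.0, 15.0 and 14.2 RPKM in alpha cells and 17.4, 16.7 and 13.3 RPKM in beta cells. The alpha libraries overlapped with both other groups, and no comparison of Slc30a4 passed (limma adjusted p between 0.157 and 0.418). Within the family, then, 3 genes were higher and Slc30a8 was lower in transdifferentiated than in alpha cells, Slc30a1 alone was lower in transdifferentiated than in beta cells, and alpha cells had Slc30a8 higher and 4 genes lower than beta cells.

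Of the Slc39a family, 9 of 14 genes were tested. In alpha cells 2 of them were higher (Slc39a11 and Slc39a14) and 4 lower than in beta cells, against 16.9% and 26.7% of all tested genes. Slc39a11 (chr11:113244853-113650079, minus strand), an importer found at the Golgi and nucleus, had 10.0 and 15.0 RPKM in transdifferentiated cells (42 and 109 reads), 21.6, 20.8 and 22.8 RPKM in alpha cells and 9.45, 8.96 and 9.92 RPKM in beta cells. The alpha libraries lay above all others, and the 2 transdifferentiated libraries differed widely, the male pool lying close to the beta level. Alpha cells had 2.30 times the mean of beta cells (1.21 ± 0.14, limma adjusted p = 0.000521), and transdifferentiated cells had 57.5% of the alpha mean (-0.83 ± 0.15, limma adjusted p = 0.00668). Against beta cells the log2 fold change of transdifferentiated cells was 0.39 ± 0.15 (limma adjusted p = 0.126). That value was 0.64 without transdifferentiated replicate 1 (limma adjusted p = 0.0411) and 0.09 without transdifferentiated replicate 2 (limma adjusted p = 0.661).

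Slc39a6 and Slc39a10 encode importers of the plasma membrane that pair with each other. Slc39a6 had 19.5 and 24.4 RPKM in transdifferentiated cells, 12.5, 15.2 and 15.5 RPKM in alpha cells and 29.7, 28.1 and 28.2 RPKM in beta cells, 3 groups with no overlap. It was higher in transdifferentiated than in alpha cells (0.56 ± 0.12, limma adjusted p = 0.011) and lower in alpha than in beta cells (-0.92 ± 0.11, limma adjusted p = 0.000583), and its value of -0.36 ± 0.12 in transdifferentiated over beta cells did not pass (limma adjusted p = 0.0843). The call against alpha cells was lost without transdifferentiated replicate 2 (0.47, limma adjusted p = 0.0524). Slc39a10 had 4.09 and 2.95 RPKM in transdifferentiated cells, 2.24, 3.38 and 2.87 RPKM in alpha cells and 1.79, 2.45 and 1.84 RPKM in beta cells, and no comparison passed (limma adjusted p between 0.0997 and 0.399).

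Slc39a1 and Slc39a3, which bring zinc in at the plasma membrane, differed in pattern. Slc39a1 had 18.4 and 17.0 RPKM in transdifferentiated cells, 9.89, 13.7 and 12.2 RPKM in alpha cells and 18.6, 19.8 and 20.2 RPKM in beta cells. It was higher in transdifferentiated than in alpha cells (0.56 ± 0.14, limma adjusted p = 0.0245) and lower in alpha than in beta cells (-0.71 ± 0.13, limma adjusted p = 0.00503). The first of these calls was lost without transdifferentiated replicate 1 (0.50, limma adjusted p = 0.126) or 2 (0.61, limma adjusted p = 0.0572) and without alpha replicate 3 (0.62, limma adjusted p = 0.0606). Slc39a3 had 16.6 and 19.6 RPKM in transdifferentiated cells, 13.8, 15.7 and 14.2 RPKM in alpha cells and 16.4, 14.3 and 15.7 RPKM in beta cells. Both transdifferentiated libraries lay just above all others, the alpha and beta libraries overlapped, and no comparison of Slc39a3 passed (limma adjusted p between 0.099 and 0.604).

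Slc39a9 and Slc39a7 act inside the cell, at the Golgi and the endoplasmic reticulum. Slc39a9 had 24.6 RPKM in both transdifferentiated libraries, 18.1, 18.5 and 19.7 RPKM in alpha cells and 29.6, 28.2 and 28.8 RPKM in beta cells, again 3 groups with no overlap. It was higher in transdifferentiated than in alpha cells (0.38 ± 0.08, limma adjusted p = 0.0132), a call lost without transdifferentiated replicate 1 (0.35, limma adjusted p = 0.0675), and lower in alpha than in beta cells (-0.60 ± 0.08, limma adjusted p = 0.00085). Slc39a7 had 7.12 and 5.16 RPKM in transdifferentiated cells, 5.07, 4.91 and 4.07 RPKM in alpha cells and 9.05, 8.02 and 5.97 RPKM in beta cells. It was lower in alpha than in beta cells (-0.66 ± 0.20, limma adjusted p = 0.0324), a call lost in 5 of the 8 fits without 1 library, with an adjusted p of up to 0.21. Its exons share 80.7% of their bases with Gm20427 on the same strand, listed at a mean of 0.112 RPKM over the alpha and beta libraries. The listed level of Slc39a7 therefore depends on how reads over the shared bases were counted, which was not tested.

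Slc39a13, a transporter of the Golgi and its vesicles that mice need for normal connective tissue, was the 1 tested gene that was higher in transdifferentiated cells than in both other groups. It had 7.59 and 7.58 RPKM in transdifferentiated cells (46 and 80 reads), 5.17, 4.99 and 5.65 RPKM in alpha cells and 4.36, 4.35 and 5.67 RPKM in beta cells. Both transdifferentiated libraries lay above all 6 others, while the alpha and beta libraries overlapped. The log2 fold change was 0.50 ± 0.14 over alpha cells (limma adjusted p = 0.0349) and 0.61 ± 0.14 over beta cells (limma adjusted p = 0.0373). The call against beta cells was lost in each of the 8 fits without 1 library (0.55 to 0.78, adjusted p between 0.0526 and 0.108), and that against alpha cells in 6 of them. Its exons share 4.4% of their bases with Psmc3, a proteasome gene on the opposite strand at a mean of 30.0 RPKM over the alpha and beta libraries. Slc39a14, which carries zinc, iron and manganese into cells, had 6.09 and 4.37 RPKM in transdifferentiated cells, 4.45, 5.77 and 6.15 RPKM in alpha cells and 3.38, 3.30 and 3.01 RPKM in beta cells. It was higher in alpha than in beta cells (0.67 ± 0.18, limma adjusted p = 0.0199), a call lost without alpha replicate 2 (0.63, limma adjusted p = 0.0592) or 3 (0.50, limma adjusted p = 0.158) and without beta replicate 3 (0.59, limma adjusted p = 0.121).

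The 8 genes that were not tested had at most 0.829 RPKM in any library and at most 3 reads in a transdifferentiated library. Slc30a3, which fills synaptic vesicles with zinc in brain, was listed at 0 in all 8 libraries. Slc30a10, a manganese exporter, and Slc39a12 had reads in alpha replicates 2 and 3 alone, at most 3 each. Slc30a2 had 0 and 0 RPKM in transdifferentiated cells, 0, 0.0209 and 0.0199 RPKM in alpha cells and 0.150, 0.249 and 0.0587 RPKM in beta cells. Slc39a4, the zinc importer of the gut, had 2 reads in each transdifferentiated library (0.723 and 0.415 RPKM), 1 to 6 reads in the alpha libraries and 0 to 7 in the beta libraries. The remaining 3 were Slc39a2, Slc39a8 and Slc39a5, of which Slc39a5 reached the highest level, in beta replicate 2. Slc39a5 had 0.751 and 0.215 RPKM in transdifferentiated cells (2 and 1 reads), 0.217, 0.696 and 0.298 RPKM in alpha cells (6, 20 and 9 reads) and 0.175, 0.829 and 0.489 RPKM in beta cells (7, 38 and 15 reads). Its 4 highest values were in transdifferentiated replicate 1, where the value rested on 2 reads, alpha replicate 2 and beta replicates 2 and 3. These libraries also had the 4 highest summed levels of 9 acinar cell markers, which came to 935 and 319 RPKM in transdifferentiated cells, 41.7, 2577 and 651 RPKM in alpha cells and 125, 3629 and 1657 RPKM in beta cells. The part of acinar cells in the Slc39a5 values was not tested.

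Summed over a family, the level of Slc30a transcripts followed Slc30a8. The Slc30a sum was 326 ± 28.8 RPKM in transdifferentiated cells (SD, n = 2), 464 ± 26.0 RPKM in alpha cells and 271 ± 18.2 RPKM in beta cells (SD, n = 3 each). Slc30a8 made up 71.3% and 77.4% of it in the transdifferentiated libraries, 84.7% to 86.7% in the alpha libraries and 63.1% to 68.5% in the beta libraries, with no overlap between the groups. Without Slc30a8 the order was turned round, at 83.1 ± 6.55 RPKM in transdifferentiated cells, 65.9 ± 2.42 RPKM in alpha cells and 90.7 ± 4.47 RPKM in beta cells. The Slc39a sum was 119 ± 4.39 RPKM in transdifferentiated cells, 101 ± 6.36 RPKM in alpha cells and 121 ± 2.0 RPKM in beta cells. Slc39a11 was 10.5 ± 2.55% of it in transdifferentiated cells, 21.7 ± 1.61% in alpha cells and 7.83 ± 0.377% in beta cells.

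**Figure D4:**
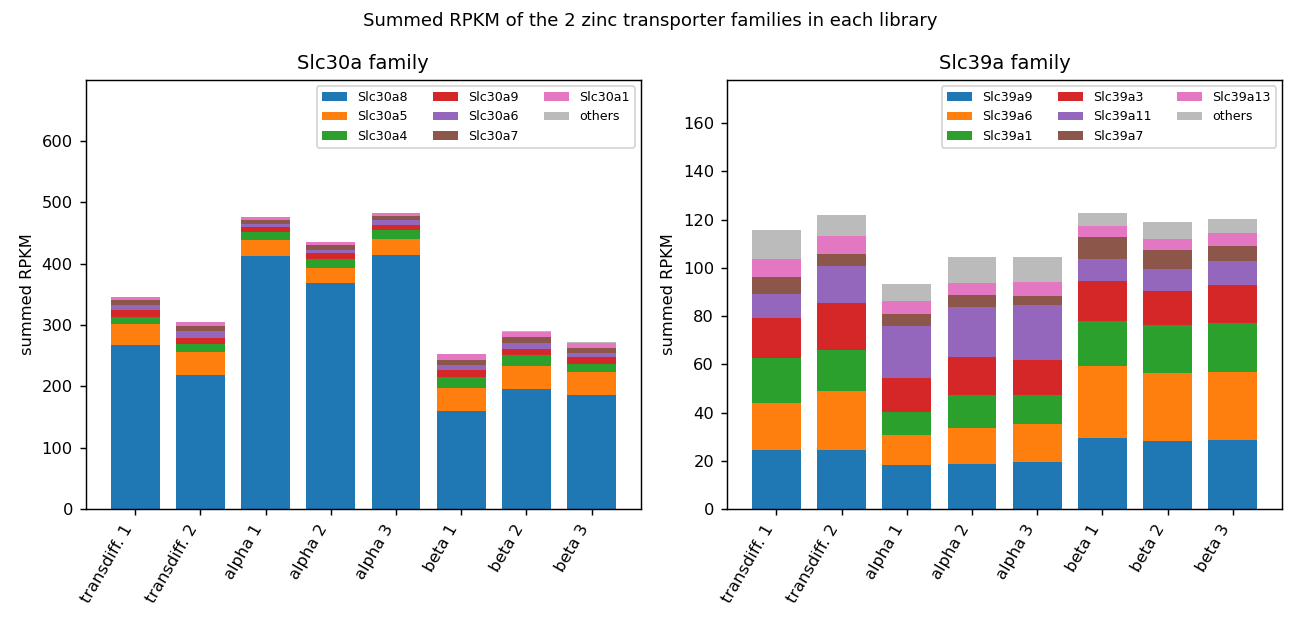
Summed RPKM of the Slc30a genes (left) and the Slc39a genes (right) in each library, stacked by gene, with transdifferentiated, alpha and beta libraries from left to right. Slc30a8, at the bottom of the left bars, makes up most of each sum, and the left bars are tallest in alpha cells, while the right bars stay between 93.4 and 123 RPKM.

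Sex was compared over 4 male and 4 female pools, with the cell group as a term. None of the 20 tested genes differed between male and female pools (0 by limma and 0 by limma voom on recovered reads), against 0.0456% of all tested genes. Slc30a6 was the 1 gene with an unadjusted p under 0.05 (log2 fold change -0.21 in male over female pools). No difference between alpha and beta cells was called as differing between the sexes, for these genes or for any of the 13172 tested (0%), with 1 of the 20 genes (Slc39a7) and 201 of all genes at an unadjusted p under 0.05.

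Other genes of zinc handling and sensing had their lowest level in alpha cells where they differed. Of 7 such genes 6 were tested. Of these, 3 were higher in transdifferentiated than in alpha cells, none was called between transdifferentiated and beta cells, and alpha cells had 4 at a lower level than beta cells. Over all tested genes, 23.2% were higher in transdifferentiated than in alpha cells and 26.7% at a lower level in alpha than in beta cells. Tmem163, a zinc transporter of vesicles, had 15.5 and 14.4 RPKM in transdifferentiated cells, at most 4.997 RPKM in alpha cells and 23.0, 18.2 and 19.8 RPKM in beta cells. It was higher in transdifferentiated than in alpha cells (1.51 ± 0.12, limma adjusted p = 0.000246) and lower in alpha than in beta cells (-1.93 ± 0.11, limma adjusted p = 2.45e-05). Trpm3, a channel that lets zinc into beta cells, had 3.09 and 1.83 RPKM in transdifferentiated cells, 0.0672 to 0.111 RPKM in alpha cells and 1.70 to 3.19 RPKM in beta cells. Trpm3 counts among the 3 and the 4 genes above, although it passed the filter with no alpha library at 1 RPKM and so had to differ from alpha cells. Gpr39, a receptor that senses zinc outside the cell, was lower in alpha than in beta cells (-0.98 ± 0.30, limma adjusted p = 0.0335), and so was Mcoln1, a lysosomal cation channel (-0.41 ± 0.09, limma adjusted p = 0.00833). The medians of the list were 0.54 in transdifferentiated over alpha cells, 0.06 in transdifferentiated over beta cells and -0.69 in alpha over beta cells, beside 0.17, 0.09 and -0.05 for all genes tested.

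Genes of other metals were set beside these as further context, their counts to be read against shares over all tested genes of 23.2% higher and 6.67% lower in transdifferentiated than in alpha cells, 9.10% and 2.90% in transdifferentiated than in beta cells, and 16.9% and 26.7% in alpha than in beta cells. Of 12 tested genes of copper handling, 3 were higher and 1 lower in transdifferentiated than in alpha cells, none was higher and 1 lower in transdifferentiated than in beta cells, and 2 were higher and 5 lower in alpha than in beta cells. Slc31a1, the copper importer of the plasma membrane, had 8.07 and 10.1 RPKM in transdifferentiated cells, 9.50, 9.81 and 10.4 RPKM in alpha cells and 13.2, 14.8 and 13.9 RPKM in beta cells. Like Slc30a1 it was lower in transdifferentiated than in beta cells (-0.58 ± 0.11, limma adjusted p = 0.0223). Of 14 tested genes of iron handling, 6 were higher and 2 lower in transdifferentiated than in alpha cells, 2 were higher and none lower in transdifferentiated than in beta cells, and 2 were higher and 7 lower in alpha than in beta cells. Hmox1, heme oxygenase, had 57.6 and 103 RPKM in transdifferentiated cells, 14.0, 19.4 and 14.6 RPKM in alpha cells and 166, 83.2 and 108 RPKM in beta cells, an order of groups like that of Mt1. Hamp, the iron hormone hepcidin, had 7.84 and 13.5 RPKM in transdifferentiated cells, 20.2, 56.1 and 55.7 RPKM in alpha cells and 5.10, 4.33 and 2.04 RPKM in beta cells.

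Markers of other cells moved with some of these groups. The summed level of 7 immune cell markers was 29.0 and 19.3 RPKM in transdifferentiated cells, 9.12 to 26.7 RPKM in alpha cells and 81.6 to 93.2 RPKM in beta cells. Between alpha and beta cells this was the direction of the metallothioneins. The transdifferentiated sums overlapped with the alpha sums and lay far below the beta sums, whereas Mt1 and Mt2 did not overlap between transdifferentiated and alpha cells. Of its 5 tested genes, H2-Aa, Ctss and Lyz2 passed the filter with no alpha library at 1 RPKM, and Lyz2 with no transdifferentiated library either, so no count of calls is given for the list. The defining leukocyte marker Ptprc, which was not tested, had 0 reads in both transdifferentiated libraries, 0, 0 and 1 in the alpha libraries and 43, 52 and 21 in the beta libraries (at most 0.133 RPKM). The macrophage marker Adgre1 had 0 reads in both transdifferentiated libraries, 0, 0 and 1 in the alpha libraries and 26, 39 and 28 in the beta libraries. Between alpha and beta cells both genes thus ran with the other immune markers. The transdifferentiated libraries held 1238420 and 2157677 recovered reads and the beta libraries 14276585 to 21309394, so the 0 reads in transdifferentiated cells say little. The sum of 4 delta cell markers was 3096 and 2967 RPKM in transdifferentiated cells, 1371 to 3197 RPKM in alpha cells and 312 to 891 RPKM in beta cells. That of the PP cell markers Ppy and Pyy was 11440 and 8249 RPKM, 7960 to 13020 RPKM and 589 to 1274 RPKM in the same groups. Alpha and beta cells thus differed in the direction of Slc30a8 and Slc39a11 in both sums. Between transdifferentiated and alpha cells none of the PP cell markers was called. Of the 4 delta cell markers, Ghsr (17 and 21 reads in transdifferentiated cells) was higher in transdifferentiated than in alpha cells (1.26 ± 0.38, limma adjusted p = 0.0422). That is against the direction of Slc30a8 and Slc39a11. Sst and Hhex had the same sign as Ghsr and Rbp4 the other, without calls. Of 10 genes of the early response to handling and heat shock, only Jun was higher and none was lower in transdifferentiated than in beta cells. Over all tested genes 9.10% were higher and 2.90% lower there. None of the 10 differed between transdifferentiated and alpha cells, where 23.2% of all tested genes were higher and 6.67% lower. In alpha cells 2 were higher and 1 lower than in beta cells, against 16.9% and 26.7% of all tested genes. The part of these cells and of handling in the values of the zinc genes was not tested.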

How the data were processed

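The authors deposited RPKM values, which are reads divided by gene length and library size, for 46959 entries in 8 libraries. Of these, 4 entries with repeated names were left out. The build was GRCm38.p4 and the tools were edgeR 3.14.0, featureCounts and STAR 2.5, per the submitters' processing notes. The library kit, TruSeq RNA v2 per the labels' protocols, does not mark strand.

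The test was limma 3.58.1 in R 4.3.3 (lmFit, eBayes with trend) on log2(RPKM + 0.5) over 13172 genes with at least 1 RPKM in at least 2 libraries, with group and sex as terms and Benjamini-Hochberg adjustment at 0.05. A group-by-sex mean model estimated how far the alpha to beta difference depended on sex, and no call is read from it. Fold changes on this scale understate changes of low genes. Means carry the SD over libraries and fold changes the SE.

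RPKM values fall on steps of 1 read. With exon lengths of GENCODE M21, 78.5% of 25353 matched expressed genes gave whole reads in all libraries within 0.01 read, and lengths solved from the steps gave reads for 26635 genes in all. limma voom on these reads called 2540 genes in transdifferentiated against alpha cells, 765 in transdifferentiated against beta cells and 6882 in alpha against beta cells, where the test above called 3932, 1580 and 5743. The scripts were tested on simulated data.

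Gene coordinates are those of GENCODE M21 (build GRCm38) and promoters those of RefSeq, matched by symbol. Genes and lists were chosen with earlier results of these data known. Genes named with values are those called in any comparison of cell groups or with a group mean of at least 10 RPKM, and from each other list at most the 4 called genes of largest change. Mtf1, Slc39a10, Slc30a2, Slc39a4 and Slc39a5 are given beyond this rule, chosen after their values were seen. Ptprc and Adgre1, which were not tested, are also given beyond it.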

Additional observations from a re-analysis of the deposited data

How the results depend on the processing

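No setting reversed the direction of a member's called difference. Mt1, Mt2, Slc30a8 and Slc39a11 kept their calls between alpha and beta cells and between transdifferentiated and alpha cells under every alternative in which they were tested, as did Slc30a1, Slc39a1, Slc39a6 and Slc39a9 between alpha and beta cells. The counts of called genes moved more. Of genes higher in transdifferentiated than in alpha cells there were 10 in the main test, 6 among the 11 with a mean of at least 10 RPKM, 4 with median-ratio scaling, 4 with quantile normalization, 6 with limma voom on recovered reads, and 5 to 9 with 1 library left out, the lowest without transdifferentiated replicate 1 (5) and replicate 2 (6). Both scalings took Slc30a5, Slc30a7, Slc39a1, Slc39a6, Slc39a9 and Slc39a13 off this list. Of genes higher in transdifferentiated than in beta cells there was 1, and 0 with limma voom, without a filter on low values, with a mean of at least 10 RPKM and under either scaling (0 to 1 with 1 library left out). Of genes lower there was 1, against 0 with a mean of at least 10 RPKM, 3 with median-ratio scaling, 3 with quantile normalization and 0 with limma voom (0 to 3 with 1 library left out, 0 without transdifferentiated replicate 1 or beta replicate 1, 2 or 3, and 3 without transdifferentiated replicate 2). Quantile normalization called Mt1 and Mt2 lower in transdifferentiated than in beta cells (-1.20 each, limma adjusted p = 0.0148 and 0.00848). Of genes lower in alpha than in beta cells there were 11, 7 with a mean of at least 10 RPKM, 8 with median-ratio scaling and 9 under quantile normalization (8 to 11 with 1 library left out). The smaller counts with a mean of at least 10 RPKM come from fewer genes tested; the cause of the other changes was not tested.

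Scaling moved the median of all genes. The median log2 fold change of all genes in transdifferentiated over alpha cells was 0.17, against -0.04 under median-ratio scaling and -0.05 under quantile normalization. The share of higher genes among those called was 77.6%, 51.5% and 49.9%. In transdifferentiated over beta cells the medians were 0.09, -0.03 and -0.04, with shares of 75.8%, 52.7% and 55.2%, and in alpha over beta cells they were -0.05, 0.04 and 0.02, with shares of 38.8%, 50% and 50%. Small differences of the transdifferentiated cells thus rest on the deposited scaling, and their low genes on few reads.

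The labels do not say which libraries of different groups came from the same islets, so the main test used no pairing. Sex and the letter b of the titles could serve as blocks, and of these only sex was a term of the main test. A fit that added the letter b after a title's number as a term called 9 genes higher and 2 lower in transdifferentiated than in alpha cells. It called 1 higher and 1 lower in transdifferentiated than in beta cells, and 3 higher and 11 lower in alpha than in beta cells.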
